A study of Mus musculus with 28 samples.

Results

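The genes described here stood highest in silenced control cultures of mouse forebrain, with nascent RNA above both untreated and disinhibited controls. They were chosen by a rule on the pooled FPKM (a read density per kilobase of gene, scaled to the library's depth) that the authors gave for each control condition. A gene entered with at least 3 FPKM under tetrodotoxin, at least 1.8 times both other control values, a mean normalized count of at least 50 over all libraries, and a locus shared with no other listed gene. Names beginning with Scn, Kcn, Hist, Pcdh, Rpl or Rps were left out. This gave 62 genes of the 22919 in the authors' deposited comparison tables. The same filters without the ratio were met by 8310 genes, and these serve below as the reference for level.

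The assay was Bru-seq: bromouridine given to living cells enters the RNA being made, and an antibody pulls down that RNA for sequencing. The cultures came from forebrain of CD1 mouse embryos at embryonic day 18 and held neurons, astrocytes and oligodendrocyte precursor cells, per the labels. All received a lentivirus on day in vitro 14, which carried either a control shRNA (shCtrl) or one that targets Rai1 (shRai1), a chromatin-associated regulator of transcription. On day 17 each culture had 4 hours of water as vehicle, of the sodium channel blocker tetrodotoxin (TTX, 1 µM), or of the GABA-A receptor blocker bicuculline (BIC, 20 µM), and 2 mM bromouridine for the last 20 minutes. The shRai1 arm had 3 libraries each for vehicle, TTX and BIC. The shCtrl arm had 2 for vehicle (replicates 1 and 2), 3 for TTX and 2 for BIC (replicates 2 and 3). The 12 ChIP-seq samples of the series were not analysed here.

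As background, TTX stops action potentials and with them the calcium entry that drives activity-regulated genes in neurons, while BIC removes inhibition and raises firing. Most work on activity-dependent transcription follows the genes that firing turns on. Genes whose transcription is higher in silence are a less familiar class, and long-lasting silence is known to make neurons scale up their synapses and excitability.

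The values are summaries made by the authors, 7 comparison tables and 1 FPKM table, and no value per library was used. A level is therefore given as 1 pooled FPKM for a condition with the bounds of its interval in the file, and a change as a log2 change with its standard error (SE) and adjusted p. The depth of single libraries is unknown, and the median mean normalized count was 181 for the 62 genes (51.0 to 3161) against 557 for the 8310. In the authors' deposited FPKM table the activity-regulated gene Npas4, a reference for silencing, stood at 928 (603 to 1254) in shCtrl vehicle. It stood at 50.0 (38.6 to 61.4) in TTX and 1382 (866 to 1897) in BIC. The vehicle and BIC intervals overlapped. Its shCtrl BIC change of 0.54 (SE 0.26) had an adjusted p of 0.0907 by DESeq2's Wald test, so no rise under BIC is read. Nascent Rai1 did not pass the test between the arms, with log2 changes in the authors' deposited tables of 0.16 in vehicle, -0.12 in TTX and 0.03 in BIC. An shRNA acts on finished mRNA, so nascent RNA gives no check of the knockdown, and the arms are called here by their labels. The labels do not say whether same-numbered replicates of the arms came from 1 dissection, nor whether replicates were separate cultures, so p-values measure only the spread between these libraries.

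In the shCtrl arm, whose values chose the genes, the pooled FPKM under TTX ran from 3.10 to 41.4 with a median of 7.80 in the authors' deposited table. The medians were 3.50 in vehicle and 2.57 in BIC. The ratio of TTX to the higher of the other conditions had a median of 2.00 and reached 3.40, and TTX over BIC reached 9.13. For 27 genes the whole TTX interval lay above both other intervals, and for the rest it overlapped at least 1. By FPKM, BIC lay below vehicle in 47 genes and above it in 15, and the rule set no side of vehicle. The authors' deposited comparison of BIC with vehicle in shCtrl gave 53 genes below 0 and 9 above. The sources differed in sign for 14 genes. No share over the 8310 genes was taken, so nothing is read from these counts. Just inside the ratio stood St6gal1, Aldh1b1 and Spata13 at 1.803, 1.804 and 1.805, and just outside it 3110039I08Rik, 4732491K20Rik and Hpn at 1.796, 1.785 and 1.785, all from the authors' deposited FPKM table. Those contrasts fixed the choice, so they are given as description.

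Ankrd63, known from striatal projection neurons and named as the marker of this group, missed the rule by its mean count of 46.5. Its pooled FPKM in the authors' deposited table was 1.53 in shCtrl vehicle, 7.51 with TTX and 1.51 with BIC. In the shRai1 arm the authors' deposited tables gave it a log2 change of 1.61 under TTX (SE 0.25, adjusted p 1.15e-09) and of -1.91 under BIC (SE 0.33, adjusted p 3.38e-08). Ankrd63 thus had the pattern of the group at a level below the count minimum, and it is not counted among the 62.

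**Figure D1:**
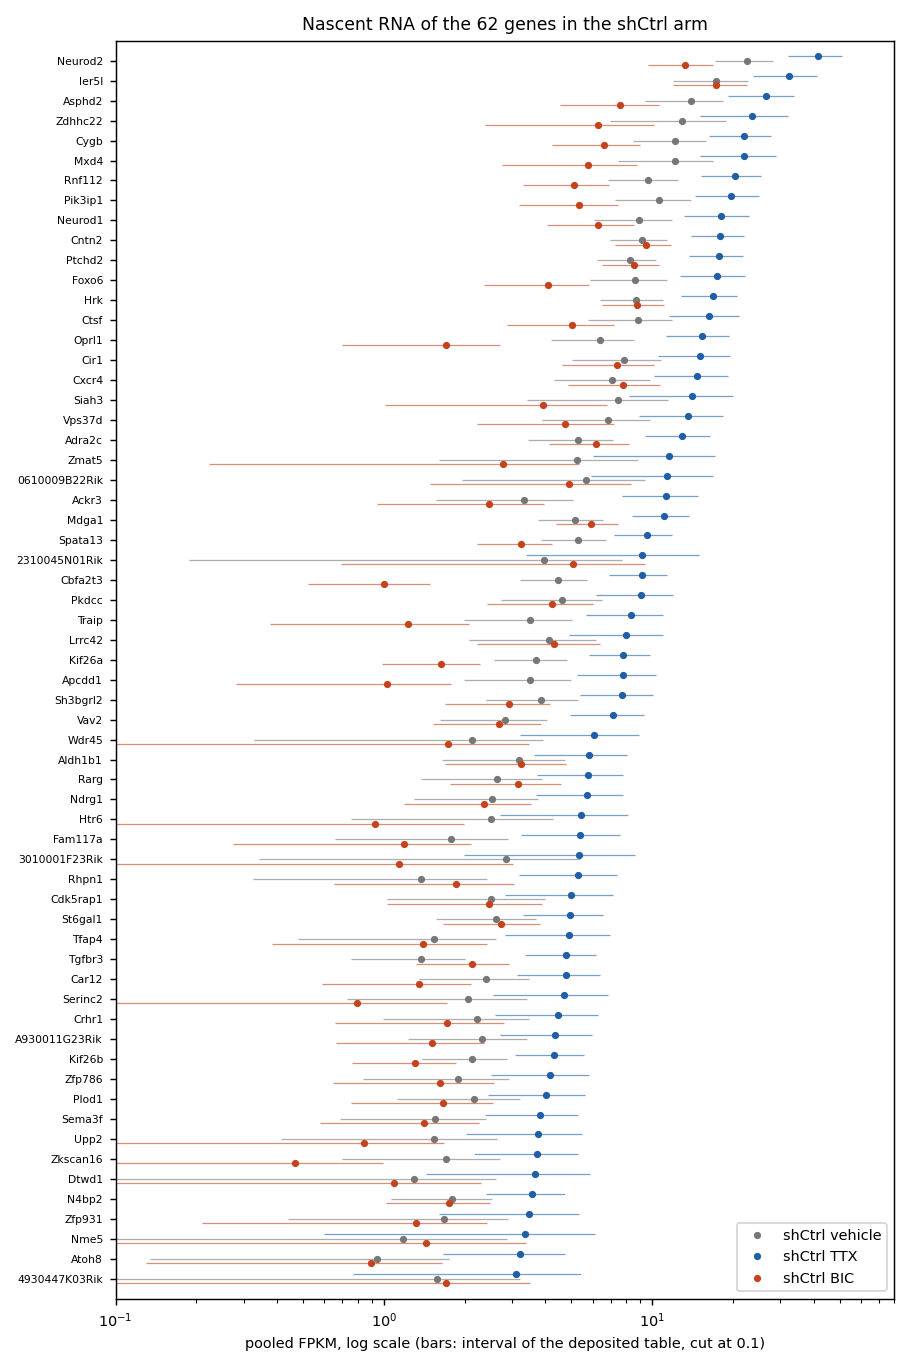
Pooled FPKM of the 62 genes in shCtrl vehicle, TTX and BIC, on a log axis, with genes ordered by TTX level and intervals as the authors' deposited table gives them. The TTX values run from 3.10 to 41.4 and are the highest of each gene because the rule required it.

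The shRai1 arm entered the rule only through the mean count over all libraries, and shares no library with the shCtrl arm. There, 53 of the 62 genes (85.5%) were called higher under TTX and 0 lower in the authors' deposited table. The calls rest on DESeq2's Wald test with an adjusted p under 0.05. The background was 13.7% called higher of 15464 genes tested and 15.3% of the 8310. Of the 9 genes not called, 6 lay above 0 and 3 below it, and none of those 3 had an unadjusted p under 0.05. The median change of the 62 was 0.71 on the log2 scale (quartiles 0.50 and 0.89, range -0.37 to 1.75), against -0.01 for the 8310 genes, in the authors' deposited table. A change of at least 1 was reached by 8 genes, a count for which no share over the 8310 was taken. These are bulk cultures, in which fewer cells of a type and less RNA per cell cannot be told apart.

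BIC moved most of the same genes downward in the shRai1 arm. By the authors' deposited table, 46 of the 62 genes (74.2%) were called lower under BIC, where the background was 21.3% of 17510 genes tested and 29.5% of the 8310. Another 4 were called higher, where the background was likewise 21.3%, and 12 were not called. The median change was -0.69 (range -2.17 to 0.69) against -0.04 for the 8310 genes in the authors' deposited table. A change of -1 or less was reached by 15 genes, again with no share taken over the 8310. TTX and BIC were compared with the same 3 shRai1 vehicle libraries, so the calls of a gene under the drugs are not independent and are set side by side only. TTX minus BIC, in which the vehicle libraries cancel and which has no error here, had a median of 1.34, against 0.00 for the 8310. By point values, TTX lay above vehicle and vehicle above BIC in 85.5% of the 62 and in 31.6% of the 8310.

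**Figure D2:**
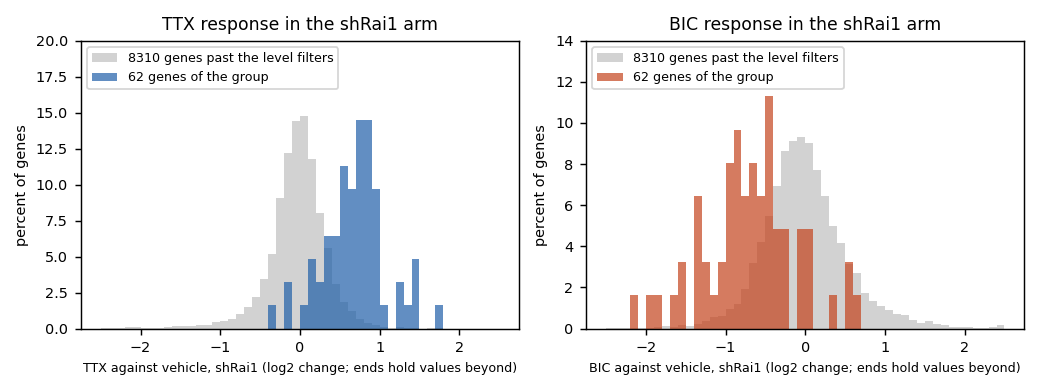
Share of genes (percent, in bins of 0.1) by log2 change in the shRai1 arm under TTX (left) and BIC (right), for the 62 genes in colour and the 8310 genes past the same level, locus and name filters in grey. The 62 genes have medians of 0.71 under TTX and -0.69 under BIC, and the grey distributions have medians of -0.01 and -0.04.

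**Figure D3:**
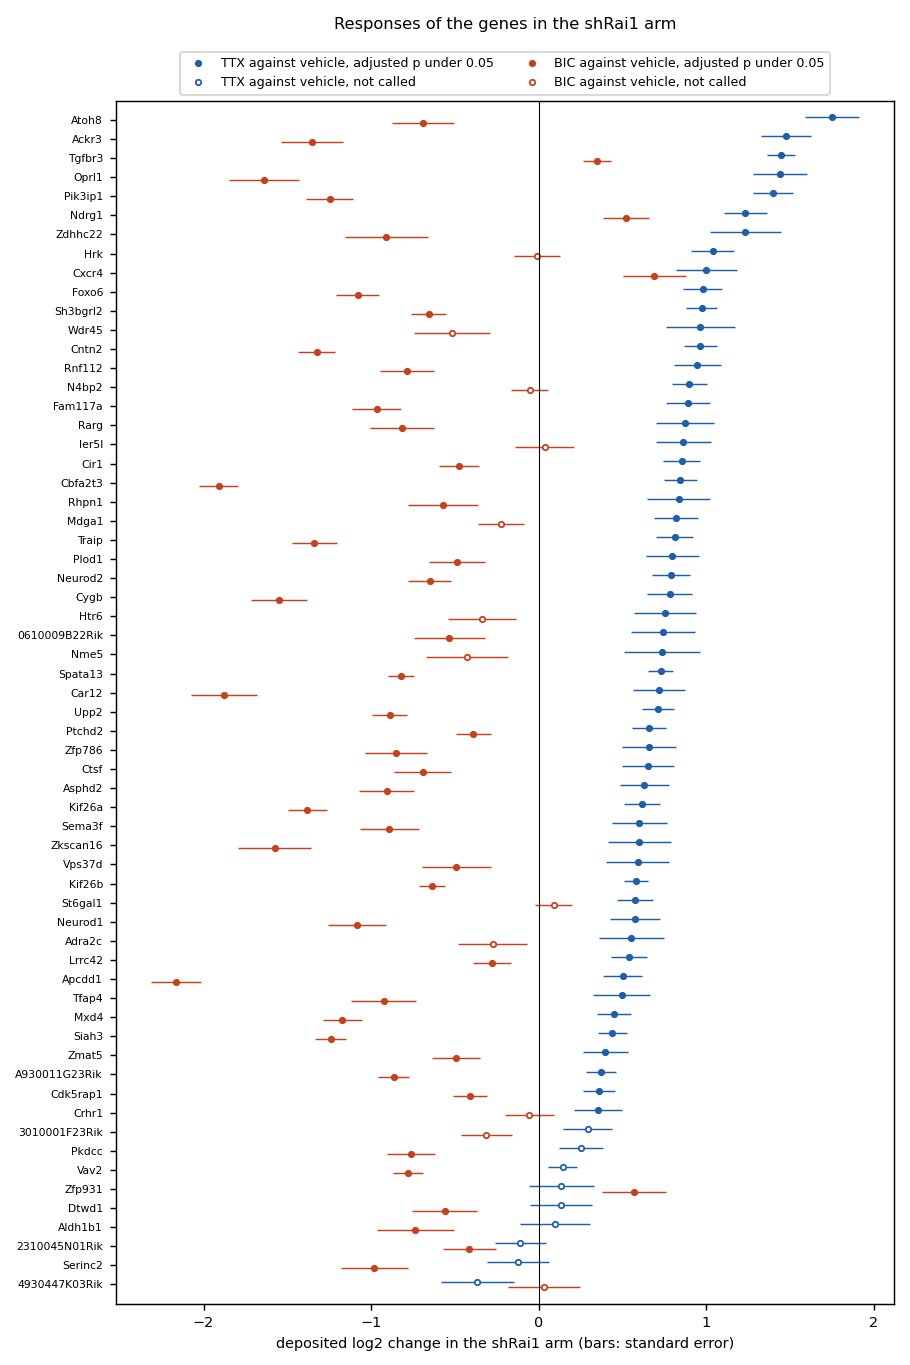
Log2 change against vehicle in the shRai1 arm for each of the 62 genes under TTX and BIC, with bars of 1 SE from the authors' deposited tables. Most genes have TTX to the right of 0 and BIC to the left, while Cxcr4, Ndrg1, Tgfbr3 and Zfp931, called higher under BIC, and Ier5l and St6gal1, not called under BIC, have both to the right.

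The genes were grouped by known role after their values were seen, and a count within a group describes it only. Transcription regulators were the largest such group, with 12 genes, of which 11 were called higher under TTX and 11 lower under BIC in shRai1. Their median changes in the authors' deposited tables were 0.72 and -0.89. The exception in both counts was Zfp931, a zinc finger gene.

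Atoh8, a basic helix-loop-helix (bHLH) transcription factor, lies on chromosome 6 from 72156172 to 72185571 (mm9). Pooled FPKM in shCtrl were 0.943 in vehicle (0.135 to 1.75), 3.20 under TTX (1.67 to 4.74) and 0.892 with BIC (0.130 to 1.65), per the authors' deposited table. TTX was the highest of the 3, and its interval overlapped that of vehicle. In shRai1 Atoh8 rose by 1.75 under TTX (SE 0.16, adjusted p 2.07e-25), the largest TTX change of the 62, and fell by 0.69 under BIC (SE 0.19, adjusted p 0.00073), per the authors' deposited tables. Vehicle and BIC were close in shCtrl, where the comparison table nevertheless gave -0.81 under BIC (SE 0.22).

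Neurod1 and Neurod2, bHLH factors of neuronal differentiation that mark the excitatory lineage in cortex, were both members. Neurod2 (chromosome 11, 98186731 to 98190959, mm9) had the highest vehicle and TTX levels of the group in shCtrl. Its pooled FPKM was 22.7 in shCtrl vehicle, 41.4 under TTX and 13.2 with BIC, per the authors' deposited table. The TTX interval (32.0 to 50.9) lay above those of vehicle (17.1 to 28.2) and BIC (9.62 to 16.8). In shRai1 Neurod2 rose by 0.79 under TTX (SE 0.11, adjusted p 1.43e-10) and fell by 0.65 under BIC (SE 0.13, adjusted p 1.91e-06), both per the authors' deposited tables. Neurod1, at 8.95, 18.0 and 6.30 FPKM in shCtrl vehicle, TTX and BIC in the authors' deposited table, had shRai1 changes of 0.57 (SE 0.15, adjusted p 0.00099) and -1.09 (SE 0.17, adjusted p 2.36e-09). Both genes were thus called in opposite directions under the drugs. The other excitatory markers of a fixed list went in mixed directions, as given below with the lists.

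Foxo6, a forkhead factor expressed in hippocampus and cortex, had a TTX change of 0.98 (SE 0.12, adjusted p 1.52e-15) and a BIC change of -1.08 (SE 0.13, adjusted p 4.02e-16) in shRai1 in the authors' deposited tables. Mxd4, which pairs with MAX and opposes MYC, had 12.1 FPKM in shCtrl vehicle, 21.96 in TTX and 5.78 in BIC, and changes in shRai1 of 0.45 and -1.17 in the authors' deposited tables. Cbfa2t3, a corepressor of the ETO family, had the second-largest fall of the group under BIC, -1.91 (SE 0.12, adjusted p 6.65e-59), and 0.84 under TTX, per the authors' deposited tables. Tfap4, another bHLH factor, rose by 0.49 under TTX (adjusted p 0.0159) and fell by 0.93 under BIC, both per the authors' deposited tables for shRai1. Rarg, a retinoic acid receptor, the corepressor gene Cir1 and the zinc finger genes Zfp786 and Zkscan16 were called higher under TTX and lower under BIC. Zfp931 changed by 0.13 under TTX (adjusted p 0.673) and rose by 0.57 under BIC (adjusted p 0.00859) in the authors' deposited tables.

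The start regions of these genes were read for short motifs of known activity-regulated and related factors. RefSeq promoters on GRCm38.p6, from 250 bases before to 50 bases after the start, were matched by symbol or RefSeq synonym for 48 of the 62 genes and 6678 of the 8310. The cyclic AMP response element TGACGTCA was in 0 of the 48 and in 3.92% of the 6678, the AP-1 element TGACTCA in 1 (2.08% against 4.28%), and the forkhead element GTAAACA in 1 (2.08% against 3.07%). A MEF2 element and a serum response element, each searched as 1 fixed run of letters, were in 0 of the 48, and in 0.15% and 0.0299% of the 6678. The E-box CACGTG, the sequence that MAX dimers bind, was in 4 (Adra2c, Atoh8, Ctsf and Mxd4; 8.33% against 12.3%). Both strands were searched in each promoter that RefSeq lists for a gene, and a match of letters is a description and not a site. Median GC content was 61.2% for the 48 and 62% for the 6678. The promoters of 2 transcription regulators with the E-box are shown because they are the members of that role whose start region holds any of these motifs. They stand 5′ to 3′ on the minus strand, with the E-box in capitals.
Atoh8, chr6:72235528-72235827 (GRCm38.p6): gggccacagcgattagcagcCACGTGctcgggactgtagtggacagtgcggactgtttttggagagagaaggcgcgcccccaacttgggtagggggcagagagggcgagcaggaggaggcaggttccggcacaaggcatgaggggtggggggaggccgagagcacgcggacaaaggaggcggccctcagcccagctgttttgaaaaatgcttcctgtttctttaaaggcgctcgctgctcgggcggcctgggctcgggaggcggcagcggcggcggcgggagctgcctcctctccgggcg
Mxd4, chr5:34187661-34187960 (GRCm38.p6): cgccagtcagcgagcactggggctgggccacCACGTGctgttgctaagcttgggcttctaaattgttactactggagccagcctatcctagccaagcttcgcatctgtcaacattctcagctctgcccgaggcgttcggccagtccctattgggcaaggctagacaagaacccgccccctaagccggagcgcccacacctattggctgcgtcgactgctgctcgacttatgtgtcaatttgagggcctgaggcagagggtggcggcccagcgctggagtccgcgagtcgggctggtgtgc
The E-box begins 230 bases before the start in Atoh8 and 219 bases before it in Mxd4.

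Receptors coupled to G proteins, with the chemokine receptors, formed a group of 6, and all 6 were called higher under TTX in shRai1, with a median of 0.88 in the authors' deposited table. Under BIC they divided into 2 lower, 1 higher and 3 not called. Ackr3, an atypical receptor that takes up the chemokine CXCL12, lies on chromosome 1 from 92100555 to 92112297 (mm9). Its pooled FPKM was 3.33 in shCtrl vehicle (1.57 to 5.08), 11.3 under TTX (7.72 to 14.9) and 2.46 with BIC (0.946 to 3.97), per the authors' deposited table. The TTX interval stood clear of both others, while those of vehicle and BIC overlapped. In shRai1 Ackr3 rose by 1.47 under TTX (SE 0.15, adjusted p 1.53e-21) and fell by 1.35 under BIC (SE 0.19, adjusted p 3.5e-12), both per the authors' deposited tables.

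Cxcr4, the signalling receptor for the same chemokine, lies on chromosome 1 from 130484776 to 130488876 (mm9). It had pooled FPKM of 7.07 in shCtrl vehicle, 14.7 under TTX and 7.79 with BIC, per the authors' deposited table. In shRai1 it rose under both drugs, by 1.00 under TTX (SE 0.18, adjusted p 6.67e-07) and by 0.69 under BIC (SE 0.19, adjusted p 0.000936), per the authors' deposited tables. The receptors of 1 chemokine were thus called in the same direction under TTX and in opposite directions under BIC. In shCtrl the authors' deposited table gave Cxcr4 a BIC change of 0.11 (SE 0.23), which was not called.

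Oprl1, the nociceptin receptor (chromosome 2, 181449721 to 181455690, mm9), had pooled FPKM of 6.38 in shCtrl vehicle, 15.3 under TTX and 1.70 with BIC, per the authors' deposited table. The 3 intervals did not overlap. In shRai1 it rose by 1.44 under TTX (SE 0.16, adjusted p 1.69e-17) and fell by 1.64 under BIC (SE 0.21, adjusted p 5.28e-14), both per the authors' deposited tables. The other receptors were Adra2c (an alpha-2 adrenoceptor), Crhr1 (the receptor for corticotropin-releasing hormone) and Htr6 (a serotonin receptor). Their TTX changes in shRai1 were 0.55, 0.35 and 0.75 in the authors' deposited table, with adjusted p of 0.0174, 0.0422 and 0.000412. Under BIC they had -0.27, -0.06 and -0.34 in the authors' deposited table, none of them called.

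Surface, adhesion and secreted proteins numbered 7, with 6 called higher under TTX and 5 lower under BIC in shRai1. Tgfbr3, a TGF-beta coreceptor, had pooled FPKM of 1.38 in shCtrl vehicle, 4.77 under TTX and 2.13 with BIC, per the authors' deposited table. In shRai1 it had the smallest adjusted p of the group under TTX, with a rise of 1.45 (SE 0.082, adjusted p 2.6e-66), and it rose by 0.35 under BIC (SE 0.084, adjusted p 0.000152), per the authors' deposited tables. Apcdd1, an inhibitor of WNT signalling, had the largest fall under BIC, -2.17 (SE 0.15, adjusted p 7.51e-47), beside a rise of 0.50 under TTX (adjusted p 0.000158) in the authors' deposited tables for shRai1. Pooled FPKM in shCtrl were 3.49 in vehicle, 7.79 under TTX and 1.03 with BIC, per the authors' deposited table. Cntn2, a contactin on axons, rose by 0.96 under TTX (adjusted p 2.4e-21) and fell by 1.33 under BIC (adjusted p 1.19e-32) in shRai1 in the authors' deposited tables. For Cntn2 the sources differed in shCtrl: the FPKM were 9.16 in vehicle and 9.51 in BIC, while the authors' deposited comparison table gave -1.17 (SE 0.14). Sema3f, a secreted guidance cue, and Ptchd2, a patched-domain protein, were called higher under TTX and lower under BIC. Mdga1, an adhesion protein that binds neuroligins, rose by 0.82 under TTX (adjusted p 1.69e-08) and was not called under BIC (-0.23, adjusted p 0.182) in the authors' deposited tables. Pkdcc, a secreted kinase, was not called under TTX (0.25, adjusted p 0.148) and fell by 0.76 under BIC, both per the authors' deposited tables.

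Kinase and GTPase signalling and cell death gave 5 genes. Pik3ip1, an inhibitor of phosphoinositide 3-kinase (PI3K), had pooled FPKM of 10.6 in shCtrl vehicle, 19.7 under TTX and 5.33 with BIC, per the authors' deposited table. In shRai1 it rose by 1.40 under TTX (SE 0.12, adjusted p 1.68e-29) and fell by 1.25 under BIC (SE 0.14, adjusted p 1.12e-17), both per the authors' deposited tables. Hrk, a cell death activator with a BH3 domain, rose by 1.04 under TTX (SE 0.13, adjusted p 2.36e-14) and had -0.01 under BIC (adjusted p 0.961) in the same arm in the authors' deposited tables. Spata13, an exchange factor for small GTPases, rose by 0.73 under TTX and fell by 0.82 under BIC, both per the authors' deposited tables. Rhpn1 had changes of 0.83 (SE 0.19) and -0.57 (SE 0.21), both called, in the authors' deposited tables. Vav2, a guanine nucleotide exchange factor, had 2.83, 7.12 and 2.68 FPKM in shCtrl vehicle, TTX and BIC in the authors' deposited table, among the 10 largest ratios of the group. In shRai1 its TTX change was 0.14 (SE 0.087, adjusted p 0.22), not called, and its BIC change -0.78 (adjusted p 1.44e-17) in the authors' deposited tables.

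The 3 genes of ubiquitin ligase families, Rnf112, Siah3 and Traip, were all called higher under TTX (0.94, 0.44 and 0.81) and lower under BIC (-0.79, -1.24 and -1.34) in shRai1 in the authors' deposited tables. The 2 kinesin-family genes Kif26a and Kif26b did the same, with TTX changes of 0.62 and 0.58 and BIC changes of -1.38 and -0.64 in the authors' deposited tables. These groups are small, and no member of either went against the others.

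Among 10 enzymes and metabolic proteins, 9 were called higher under TTX and 8 lower under BIC in shRai1. Zdhhc22, a palmitoyltransferase-family protein, had the largest TTX change of these, 1.23 (SE 0.21, adjusted p 8.89e-08), and fell by 0.91 under BIC, both per the authors' deposited tables. Car12, a carbonic anhydrase, rose by 0.72 under TTX and fell by 1.88 under BIC (SE 0.20, adjusted p 2.68e-20), both per the authors' deposited tables. Cygb, the oxygen-binding cytoglobin, had 12.2 FPKM in shCtrl vehicle, 22.02 in TTX and 6.63 in BIC, and shRai1 changes of 0.78 and -1.55, in the authors' deposited tables. The uridine phosphorylase gene Upp2, the cathepsin gene Ctsf, the collagen hydroxylase gene Plod1 and Cdk5rap1, which modifies transfer RNA, were called higher under TTX and lower under BIC. St6gal1, a sialyltransferase, rose by 0.57 under TTX (adjusted p 1.8e-06) and had 0.09 under BIC (adjusted p 0.576) in the authors' deposited tables. Nme5, of the nucleoside diphosphate kinase family, rose by 0.74 under TTX (adjusted p 0.00573) and had -0.43 under BIC (adjusted p 0.158) in the authors' deposited tables. Aldh1b1, a mitochondrial aldehyde dehydrogenase, was the enzyme not called under TTX, with 0.10 (SE 0.21, adjusted p 0.794), and fell by 0.74 under BIC, both per the authors' deposited tables.

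The remaining 17 genes were placed in no role, and 12 were called higher under TTX and 11 lower under BIC in shRai1. Ndrg1, a stress- and differentiation-responsive gene, rose by 1.23 under TTX (SE 0.13, adjusted p 2.42e-19) and by 0.52 under BIC (SE 0.14, adjusted p 0.000569), and its shCtrl changes were 1.52 and 0.80, in the authors' deposited tables. Its FPKM in shCtrl were 2.52 in vehicle, 5.73 under TTX and 2.36 with BIC, per the authors' deposited table, so for BIC the FPKM and the comparison table differed in sign. Fam117a, Sh3bgrl2, Asphd2, Vps37d, Zmat5, Lrrc42, 0610009B22Rik and A930011G23Rik were called higher under TTX and lower under BIC, with TTX changes from 0.37 to 0.97 in the authors' deposited table. Ier5l, N4bp2 and Wdr45, a gene of autophagy, were called higher under TTX, at 0.86, 0.90 and 0.96, and not under BIC in the authors' deposited tables. The smallest TTX changes of the 62 were those of 4930447K03Rik (-0.37, SE 0.22, adjusted p 0.202), Serinc2 (-0.12, SE 0.19, adjusted p 0.685) and 2310045N01Rik (-0.11, SE 0.15, adjusted p 0.647) in the authors' deposited table. Aldh1b1, named above, and Dtwd1 (0.13, SE 0.19, adjusted p 0.659) followed in the authors' deposited table. These had been listed at ratios of at least 1.8 in the pooled shCtrl FPKM, and 4930447K03Rik also lay below 0 (-0.11, SE 0.24) in the authors' deposited comparison table for TTX in shCtrl.

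The behaviour under BIC divides the genes. Besides the 46 called lower in shRai1, the 12 not called were 3010001F23Rik, 4930447K03Rik, Adra2c, Crhr1, Hrk, Htr6, Ier5l, Mdga1, N4bp2, Nme5, St6gal1 and Wdr45, with BIC changes from -0.52 to 0.09 in the authors' deposited table. Of these 12, 10 had no BIC call in shCtrl either, per the authors' deposited table. Most genes had none there, with 17.4% of 16692 called higher and 17.0% lower, so nothing is read from the 10. The 4 called higher under BIC were Cxcr4, Ndrg1, Tgfbr3 and Zfp931, at 0.35 to 0.69 in the authors' deposited table, of which 3 were also called higher under BIC in shCtrl. In shCtrl the rule itself required the BIC FPKM to lie well below TTX, and it set no side of vehicle.

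The arms are set side by side here as description, since the shCtrl contrasts chose the genes. Under TTX in shCtrl 54 of the 62 were called higher and 0 lower, per the authors' deposited table, where the background was 11.8% of 15464 genes called higher, and the median change was 0.97. Under BIC in shCtrl 36 were called lower and 4 higher in the authors' deposited table, where the background was 17.0% and 17.4% of 16692 genes, and the median was -0.61. Called higher under TTX in both arms were 51 genes, 3 in shCtrl only, 2 in shRai1 only and 6 in neither, and 35 were called lower under BIC in both. Over all genes with an adjusted p in both arms, 7.34% of 15464 were called higher under TTX in both and 14.9% of 16692 lower under BIC in both, and since the shCtrl calls rest on the values that chose the 62 genes, nothing is read from their counts. The point value under TTX was smaller in shRai1 than in shCtrl for 49 genes and larger for 13. A gene chosen for a high value in 1 set of libraries is on average less extreme in another, so nothing about the knockdown is read from that count. The sources also differed within shCtrl: the sign of the BIC change was opposite in the FPKM and in the authors' deposited comparison table for 14 genes, and that of the TTX change for 1.

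**Figure D4:**
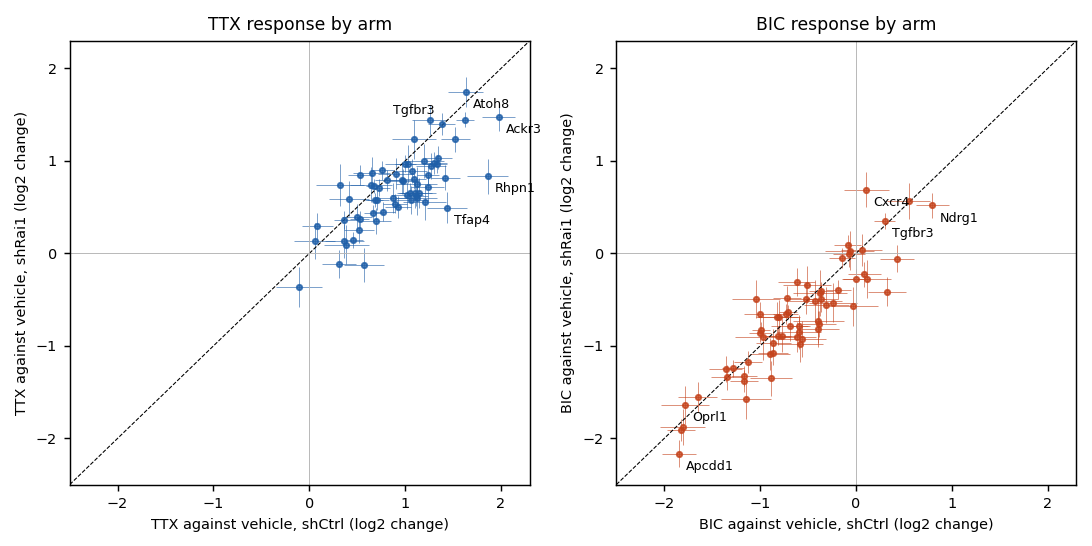
Log2 change against vehicle in shRai1 (vertical) plotted on that in shCtrl (horizontal) for the 62 genes under TTX (left) and BIC (right), with bars of 1 SE and a line of equal change. Under TTX 49 genes lie below the line, with Rhpn1 and Tfap4 far below it, and the shCtrl values are those of the contrast that chose the genes.

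Between the arms within a treatment, 0 of the 62 genes were called by DESeq2's Wald test in any of the authors' 3 deposited knockdown tables. The background was low as well: 0.0142% of 21192 genes in each direction in TTX, 0.00472% in each direction in BIC, and 0.126% higher and 0.73% lower of 14237 genes in vehicle. An unadjusted p under 0.05 was listed for 8 of the 62 in TTX, 3 in BIC and 6 in vehicle in the authors' deposited tables, where it was listed for 3.3% of 21192 genes, 2.93% of 21192 and 8.17% of 20107. Median changes, shRai1 minus shCtrl, were -0.11 in TTX (52 genes below 0), 0.02 in BIC (38 above 0) and 0.14 in vehicle (44 above 0) in the authors' deposited tables, against -0.01, 0.01 and 0.00 for the 8310 genes. Each of these contrasts holds shCtrl libraries that the rule used, which asked for high TTX and low vehicle in shCtrl, and such a choice favours these signs, so they are not read further. The smallest adjusted p was that of Tfap4 in vehicle (0.73, SE 0.21, adjusted p 0.0556), followed by 2310045N01Rik in vehicle (0.59, SE 0.18, adjusted p 0.0825), in the authors' deposited table. In TTX Rhpn1 came first (-0.59, SE 0.17, adjusted p 0.596), and in BIC all 62 had the same adjusted p of 1.00, per the authors' deposited tables. The median SE of the 62 was 0.13 in TTX, 0.18 in BIC and 0.16 in vehicle.

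**Figure D5:**
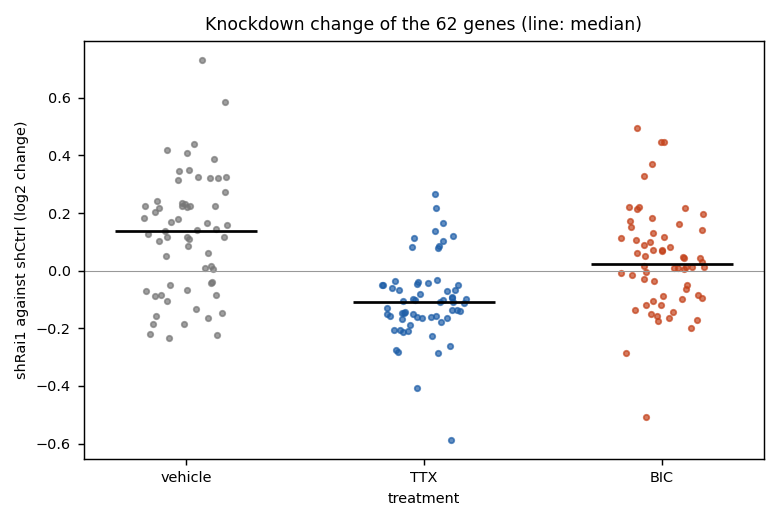
Log2 change of shRai1 against shCtrl for the 62 genes in vehicle, TTX and BIC, 1 point a gene, from the authors' deposited tables, with the median as a bar. The medians are 0.14, -0.11 and 0.02, and 0 genes were called in any treatment.

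Lists of known genes give the setting of these responses in the shRai1 arm, where the authors' deposited tables called 13.7% of genes higher and 16.8% lower under TTX, and 21.3% in each direction under BIC. All 35 activity-regulated genes of a fixed list were called lower under TTX (median -1.62) and 27 higher and 3 lower under BIC (median 1.08) in the authors' deposited tables, and none of them was a member. Among 15 excitatory neuron markers, Neurod2 was the only member, and 4 were called higher and 2 lower under TTX (median -0.01), and 6 higher and 8 lower under BIC, in the authors' deposited tables. Cux2 (0.27 and -1.12) and Camk2a (0.19 and -0.53), picked after their values were seen, were called higher under TTX and lower under BIC as Neurod2 was, per the authors' deposited tables. Among 19 measured striatal projection neuron-enriched genes, a list that holds Ankrd63, 12 were called higher and 4 lower under TTX (median 0.40), and 4 higher and 12 lower under BIC (median -1.12), in the authors' deposited tables. None of those 19 was a member. Of those past the ratios, Ankrd63 missed the count minimum and Scn4b was left out by name. A list of 18 FoxO factors and FoxO-responsive genes held the members Foxo6, itself a FoxO factor, and Pik3ip1. Txnip, also on that list and past the ratios, was left out for its shared locus. Of the 18, 7 were called higher and 6 lower under TTX, and 8 higher and 4 lower under BIC, in the authors' deposited tables. Of 19 clock and PAR-bZIP genes, none was a member, and 6 were called higher and 8 lower under TTX, and as many under BIC, in the authors' deposited tables.

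Markers of other cells were measured in the same way. Of 14 oligodendrocyte-lineage markers 7 were called higher and 0 lower under TTX (median 0.42), and under BIC 0 higher and 1 lower, per the authors' deposited tables for shRai1. Their summed FPKM in the authors' deposited table was 214 in shCtrl vehicle, 188 in TTX and 214 in BIC. Of 14 inhibitory neuron markers 0 were called higher and 7 lower under TTX, and 6 higher and 3 lower under BIC, in the authors' deposited tables, with summed FPKM of 612, 495 and 650. Of 14 astrocyte markers 2 were higher and 1 lower under TTX, and 2 higher and 3 lower under BIC, and their summed FPKM was 389, 324 and 306 in the authors' deposited tables. Of 12 microglia markers 0 were higher and 1 lower under TTX and 2 higher and 0 lower under BIC (summed FPKM 51.8, 41.3 and 75.7), and Fcrls was listed at 0 in all 3 conditions, in the authors' deposited tables. Of 10 measured vascular and fibroblast markers 1 was higher and 0 lower under TTX and 0 higher and 1 lower under BIC, with summed FPKM of 7.26, 9.28 and 8.65 in the authors' deposited tables. None of these glial and vascular markers was a member, and their part in the values of the 62 genes was not tested.

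Position entered the rule only in leaving out genes that share a locus. The authors' intervals of the 62 genes (mm9) had a median length of 20745 bp (quartiles 8986 and 44300 bp) against 23718 bp for the 8310. Under 10000 bp were 27.4% of the 62 and 24.0% of the 8310, and at 100000 bp or more 11.3% and 13.2%. The genes lay on 17 chromosomes, with 9 on chromosome 2 (14.5% against 8.16% of the 8310) and 8 each on chromosomes 4, 5 and 11 (12.9% against 6.46%, 6.76% and 8.24%).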

How the data were processed

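Bru-seq values from 16 libraries in 6 groups were analysed, with groups taken from the labels. The mm9 build, TopHat2 2.1.0, Bowtie2 2.2.6 and DESeq2 are named per the submitters' processing notes. The deposited comparisons are labelled DESeq2, and the roles of TopHat2 and Bowtie2 are not given in the sources used here. The authors' 7 comparison tables hold, per the file headers, a mean normalized count (a signal averaged over libraries), a log2 change with its standard error, a Wald statistic (a score), a p-value and a p-value adjusted by the authors. The deposited FPKM table gives, per the file headers, a single pooled value and its bounds for each condition, so no fit per library could be made and the deposited tests were used.

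Members were found by the rule from these files. A call is an adjusted p under 0.05 over the whole table. The vehicle knockdown table was deposited without gene names, and 20107 rows were named by their unique mean count. The naming was checked by hiding and recovering the names of the TTX knockdown table. For the 62 members it was also checked by the closure of log2 changes within 1e-09. Interactions were computed here as differences of deposited log2 changes, with a two-sided Wald test and Benjamini-Hochberg adjustment over 12333 genes with a mean count of at least 50. This interaction test was tried on simulated data. The FPKM columns named for shRai1 were not used, because the column named TTX lay above that named vehicle in 3 of 62 members, where the authors' comparison gave 59 changes above 0. Of 245 genes past the ratios, 103 with microRNA names were not in the comparison tables, 61 had a mean count under 50, 13 shared a locus and 6 were left out by name.

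The members, the 10 lists and the tests were chosen with earlier results of these data known. Named genes were the 10 largest ratios, the 8 largest and 5 smallest TTX changes in shRai1, members on a fixed list and the 3 genes on each side of the threshold; further genes were named after their values were seen. Alternatives covered each threshold of the rule and of the call. The scripts used Python 3.11.15, pandas 2.3.3 and scipy 1.17.1.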

Additional observations from a re-analysis of the deposited data

Results flagged for a closer look

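A Wald test of the difference in TTX change between the arms called 188 of 12333 genes (1.52%) at an adjusted p under 0.05. Among the 62 it called 2, Rhpn1 and Tfap4, which is why they are listed. The test is not valid for these genes: they were chosen for high TTX and low vehicle values in shCtrl, which favours a smaller change in shRai1, and 49 of the 62 differences lay below 0 (median -0.26). The values are therefore a description, with no difference between the arms read from them. Rhpn1 changed by 1.86 in shCtrl and 0.83 in shRai1, -1.02 for shRai1 minus shCtrl, in the authors' deposited tables. Tfap4, a bHLH factor, had 1.44 and 0.49, which is -0.94 for shRai1 minus shCtrl, in the authors' deposited tables.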

How the results depend on the processing

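The number of genes moved with each threshold of the rule, 62 as reported: 222 at a ratio of 1.5, 32 at 2.0, 24 at 10 FPKM, 96 with no mean count minimum, 27 at a mean count of 200, and 32 with a pseudocount of 1 in the ratio. The genes called higher under TTX in shRai1, 53 as reported, then numbered 152 at a ratio of 1.5, 28 at 2.0, 24 at 10 FPKM, 26 at a count of 200 and 29 with the pseudocount. Those called lower under BIC, 46 as reported, numbered 175, 25, 19, 21 and 25 in the same order. These counts follow the number of genes admitted, and the share called higher under TTX, 85.5% as reported, ran from 59.4% with no mean count minimum to 100% at 10 FPKM. With no mean count minimum 57 of 96 were called higher under TTX and 52 (54.2%, against 74.2% as reported) lower under BIC, so the counts stayed near those reported while the shares fell. The other settings (a minimum of 1 FPKM, interval overlap, thresholds of 0.01 and 0.1, other sets of genes for the adjustment, centring, a minimum change of 0.5) kept both counts within 1.5 times. Of 144 TTX values for the 24 named members, 142 kept their side of the threshold and 0 reversed; the TTX rise of Tfap4, 0.49, was no longer called at an adjusted p of 0.01 and fell short of the minimum change. Of 144 BIC values for these genes, an alternative chosen after seeing the data, 136 kept their side, 5 lost the call and 2, both Wdr45, gained it. The BIC change of Hrk, not called, turned from -0.012 to 0.021 when centred on the median. The lost calls were those of 2310045N01Rik, Dtwd1 and Rhpn1 at an adjusted p of 0.01, and of 2310045N01Rik and Tgfbr3 at the minimum change. No paired analysis was possible because the files give no value per library, and leaving out each replicate was not run for the same reason. Pooled FPKM and comparison tables can differ in sign, and the lowest mean count of a member was 51.0.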

Other observations

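Genes past the ratios and the count minimum that the rule left out, for their name or a shared locus, numbered 19. In the shRai1 arm 16 of them were called higher and 1 lower under TTX in the authors' deposited tables. Under BIC 12 were called lower and 1 higher in the same arm. The background under TTX was 13.7% called higher and 16.8% lower of 15464 genes tested. Under BIC it was 21.3% in each direction of 17510 genes tested. The 19 genes had passed the same ratios in the shCtrl FPKM as the members, so they too were chosen for high TTX values there. The sodium channel subunit gene Scn4b, left out by name, changed by 2.87 under TTX (SE 0.18, adjusted p 4.56e-53) and by -1.94 under BIC (SE 0.28) in the authors' deposited tables. Txnip, the thioredoxin-interacting protein, whose interval is shared, had 24.4, 74.7 and 15.02 FPKM in shCtrl vehicle, TTX and BIC, and shRai1 changes of 1.79 (SE 0.12, adjusted p 5.98e-45) and -0.59 in the authors' deposited tables. Rps6ka5 begins like a ribosomal protein gene and was left out by name, but it encodes a kinase; it changed by 0.74 under TTX (adjusted p 4.21e-20) and by -0.73 under BIC (adjusted p 9.87e-19) in the authors' deposited tables. The 4 histone genes Hist1h1a, Hist1h4b, Hist1h4n and Hist3h2a were called higher under TTX, from 1.07 to 1.65, and not called under BIC in the authors' deposited tables. Rbm14-rbm4, which shares its locus, had 0 FPKM listed for shCtrl vehicle and was called lower under TTX in shRai1 (-0.47) in the authors' deposited tables.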
